A study of Mus musculus with 95 samples.

Results

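Mouse pancreatic islet libraries numbered 91 to 100 were compared with each other, 4 with the highest level of Cd3e, the gene of a signalling chain of the T cell receptor complex, against the remaining 6. The 4 libraries are 97, 98, 99 and 100, called here Cd3e-high, and the 6 are 91 to 96, called Cd3e-low. They are 10 of the 95 islet libraries of the series, which surveys the inbred founder strains of the Diversity Outbred stock. All 10 share the tissue and a diet with 45% fat, described in the labels as a high-fat, high-sugar regimen. Strain, sex and age are not given for a library, nor whether the libraries came from separate animals. The sets were chosen by the measured CPM of Cd3e, so every gene of the comparison counts as used by the choice. The differences are therefore given as a description, with no test.

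Islets are clusters of endocrine cells scattered through the exocrine pancreas, with insulin-secreting beta cells, glucagon-secreting alpha cells and somatostatin-secreting delta cells. Lymphocytes and macrophages can gather around and inside islets, and such infiltrates can hold T cells, B cells, antigen-presenting cells and high endothelial vessels that admit naive lymphocytes. Cells exposed to interferon raise antigen-presentation genes, endocrine cells included. In bulk RNA, fewer cells of a type and less RNA per cell cannot be told apart.

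Cd3e (chromosome 9, 44998743 to 45009590 on GRCm38) stood at 88.1, 27.5, 41.1 and 46.0 CPM in libraries 97, 98, 99 and 100. CPM is the estimated count of a gene per 1000000 counts of its library. In libraries 91 to 96 it stood at 14.6, 22.9, 5.91, 0.438, 3.05 and 1.95 CPM. The members just inside and just outside the line were therefore library 98 at 27.5 and library 92 at 22.9 CPM, while the Cd3e-low set itself spanned 0.438 to 22.9 CPM. The same 4 libraries ranked highest, in the same order, under each of the 5 scalings tried. In the 85 other libraries of the series the median was 0.0747 and the highest value 5.65 CPM, so 3 of the 6 Cd3e-low libraries also lay above all of those.

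The counts of the 10 libraries differed beyond the immune genes. Totals ran from 20566736 to 32290848 counts, so 1 CPM stood for 20.6 to 32.3 counts. The 183 measured immune list genes took 4.31%, 1.63%, 3.25% and 3.20% of counts in the Cd3e-high libraries. In libraries 91 to 96 they took 1.08%, 1.89%, 0.588%, 0.246%, 0.384% and 0.385%. Library 92 thus held a larger immune share than library 98. By gene, 98 was above 92 by column sum for 15 of 19 T cell receptor genes and 16 of 22 interferon-induced genes. It was below 92 for 11 of 15 plasma cell and immunoglobulin genes and 8 of 12 B cell genes. Over the 179 immune genes kept at a mean of 1 CPM or more, it was above for 90 and below for 89. Over all kept genes library 98 was above for 4026 and below for 10891 by column sum, so lying below 92 was common to most genes. The order of libraries 92 and 98 depended on the immune genes taken and, as given below, on the scaling. The sets are therefore not plainly more and less infiltrated. Genes of the enzyme-secreting acinar cells, 18 of 18 detected and none at 0 in every library, took 4.07%, 9.91%, 4.01% and 4.60% of counts in the Cd3e-high set. In the Cd3e-low set they took 16.8%, 3.19%, 33.5%, 25.1%, 29.2% and 15.4%, so library 92 alone of that set had a share as low as the Cd3e-high libraries. Xist, the X-inactivation transcript, stood at 607, 588, 638 and 2.44 CPM in libraries 97 to 100, at 399 and 647 CPM in 91 and 92, and at 1.22 to 4.04 CPM in 93 to 96. The Cd3e-high libraries are also the last in the numbering. The part of acinar share, Xist status and library number in the differences below was not tested.

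**Figure D1:**
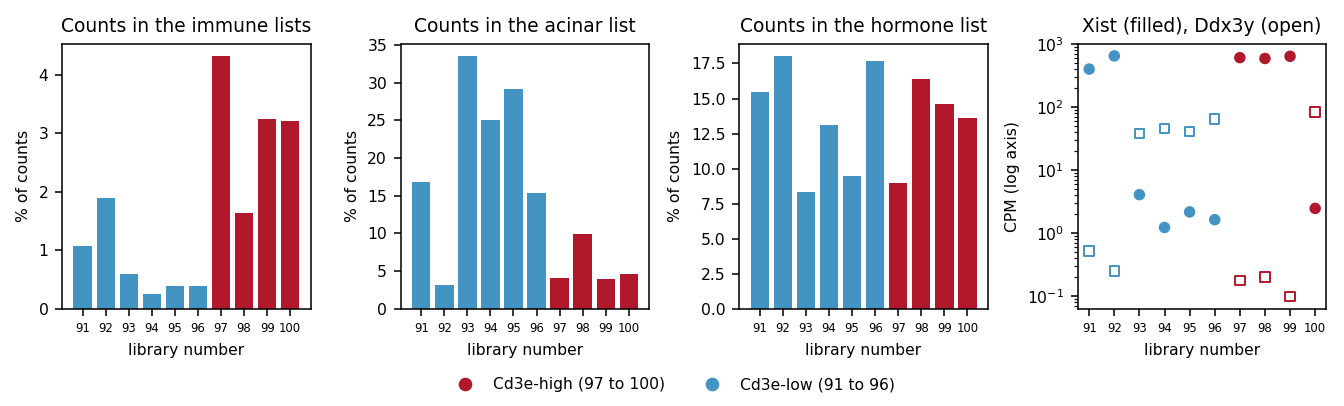
Share of counts (%) in the immune, acinar and hormone lists (bars), and Xist and Ddx3y in CPM on a log axis, for each library by number. Acinar shares were 15.4% or more in 5 of the 6 Cd3e-low libraries, whereas library 92, with 3.19%, sits with the Cd3e-high libraries.

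A difference is given below as the median of log2(CPM + 0.5) over the Cd3e-high set minus that over the Cd3e-low set. A gene is called separated when every library of one set lay above every library of the other and the set medians were at least 2-fold apart. Of 14917 genes with a mean of 1 CPM or more, 1507 (10.1%) were separated with the Cd3e-high set above and 14 (0.0939%) with it below. With TMM scaling, which trims extreme genes before it sets library sizes, 1169 of 14820 (7.89%) were above and 96 (0.648%) below. Thus 99.1% of the separated genes were higher in the Cd3e-high set by column sum, and 92.4% by TMM, and 875 genes were above and 14 below under both. By DESeq2 size factors 7.94% of genes were separated above and 0.6% below, by column sums without the immune, hormone and acinar lists 10.4% and 0.215%, and by granule genes 11.3% and 0.121%. With no minimum fold the shares were 14.7% and 0.174% by column sum and 14.5% and 7.22% by TMM. Scaling by column sum put the median difference of all kept genes at 0.60, against -0.03 by TMM, and put 88.7% of genes above 0 against 46.8% by TMM. Each value by column sum should be read against that shift of 0.60. The count of genes separated above in each list should be read against 10.1% of all genes by column sum and 7.89% by TMM.

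Libraries 92 and 98 set most of the overlap between the sets. By set medians, 3829 genes were at least 2-fold higher in the Cd3e-high set, and 2322 of them overlapped. In 90.2% of these 2322 genes library 92 was the only Cd3e-low library above the lowest Cd3e-high one. Library 98 was the lowest Cd3e-high library for 3618 of the 3829 genes, and 92 the highest Cd3e-low library for 3707. Without library 92, 4289 genes were separated above and 117 below. Without library 98 the counts were 3762 and 25. Set against each other by column sum, library 98 was higher than 92 for 90 of the 179 immune genes and lower for 89. By TMM it was higher for 126 and lower for 53. Over all kept genes library 98 was higher for 4026 and lower for 10891 by column sum, and for 8445 and 6472 by TMM. For B cell genes 98 was higher for 8 of 12 by TMM, and for plasma cell and immunoglobulin genes lower for 10 of 15.

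**Figure D2:**
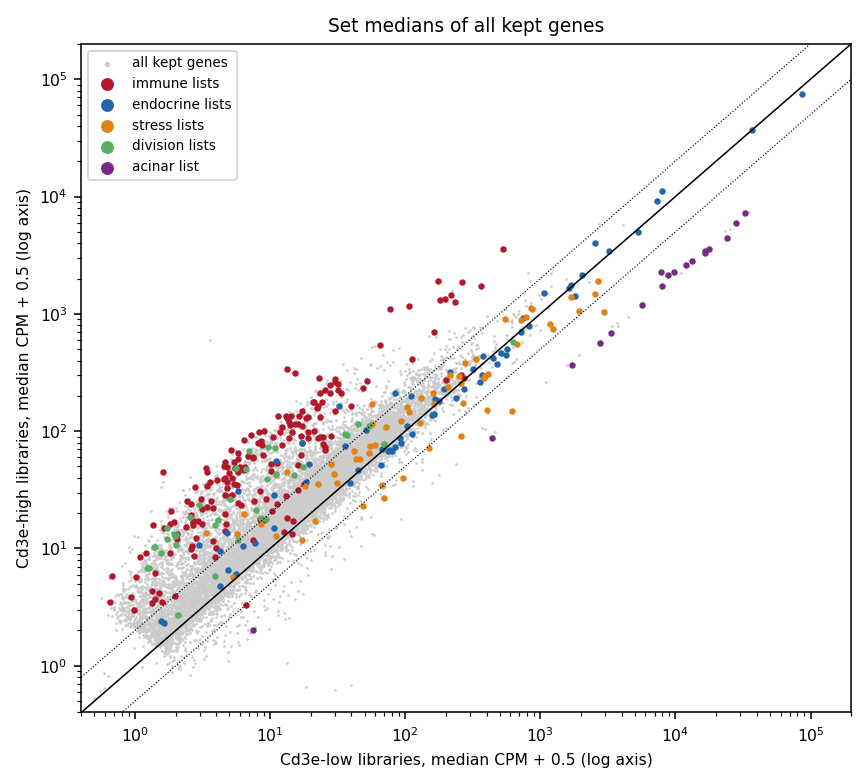
Median CPM + 0.5 of each kept gene in the Cd3e-low (horizontal) and Cd3e-high (vertical) libraries, on log axes, with the fixed gene lists coloured. The solid line marks equal medians and the dotted lines a 2-fold difference; 177 of 179 immune list genes lie above the solid line and all 18 acinar genes below it.

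Genes of the T cell receptor complex and its coreceptors were higher in the medians of the Cd3e-high set for 19 of 19 members, with a median difference of 3.14 by column sum (2.54 above that of all genes) and 2.19 by TMM. Of the 19, 15 were separated by column sum and 18 by TMM. Cd3e, which chose the sets, is among them, and without it 18 of 18 were higher, 14 separated by column sum and 17 by TMM. Cd4, the helper coreceptor, was the most abundant member by the median of the Cd3e-high set. It stood at 196, 59.3, 89.3 and 137 CPM there and ran from 1.75 through a median of 13.5 to 58.0 CPM in the Cd3e-low set. Cd8a, the chain that marks cytotoxic T cells, stood at 120, 30.7, 49.4 and 80.1 CPM against 0.584, 5.29 and 25.9 CPM (lowest, median, highest). The sets of both genes do not overlap, with 98 lowest on the one side and 92 highest on the other. Cd8a had the largest difference of the list, 3.55, followed by Cd8b1 at 3.50. Cd28, the costimulatory receptor, had the smallest, 2.62, and overlapped, with 24.1 CPM in the highest Cd3e-low library against 18.6 CPM in the lowest Cd3e-high one.

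Killing genes were lower in level but as far apart. Of 14 cytotoxic and natural killer genes fixed, 6 were not measured in the deposited counts. Of the 8 measured, 6 were separated, with a median difference of 3.06. Nkg7, a cytotoxic granule protein, stood at 54.0, 16.8, 29.8 and 35.7 CPM against 0.389, 2.26 and 13.1 CPM. Ccl5, a chemokine of effector T cells, stood at 118, 30.6, 68.4 and 97.4 CPM against 0.972, 5.90 and 29.1 CPM. Gzmb, a granzyme, was scarce, at 8.46, 1.67, 2.77 and 7.79 CPM, and overlapped with library 92, its highest Cd3e-low value, at 1.8 CPM. For 5 of these 8 genes the Cd3e-low median was under 1 CPM, so they were kept through the Cd3e-high libraries.

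Checkpoint and regulatory genes were less far apart by median, 2.53, and 4 of 12 were separated, against 10.1% of all genes. Pdcd1, which encodes the inhibitory receptor PD-1, stood at 35.1, 13.98, 19.1 and 22.0 CPM against 0.0972, 1.34 and 8.08 CPM. Lag3, another inhibitory receptor, differed by 3.44. Cd274, which encodes the PD-1 ligand and was the most abundant of the list, stood at 189, 75.4, 114 and 184 CPM against 14.5, 29.8 and 87.5 CPM, with library 92 above library 98. Foxp3, the transcription factor of regulatory T cells, stood at 25.5, 10.3, 10.8 and 20.5 CPM against 0.386, 2.64 and 9.82 CPM. Tox and Ikzf2 had the smallest differences, 0.97 and 1.52.

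Genes of naive lymphocytes and of lymphoid organisation were higher by median for 14 of 14 members, with a median difference of 2.72. Of the 14, 5 were separated, against 10.1% of all genes. Glycam1, a mucin of high endothelial vessels, stood at 371, 158, 158 and 99.6 CPM against 1.41, 21.6 and 238 CPM, so its highest Cd3e-low value exceeded 3 of the 4 Cd3e-high ones. Cxcl13, the chemokine that draws B cells into follicles, stood at 65.8, 18.5, 80.3 and 43.4 CPM against 0.462, 4.12 and 22.5 CPM. Ccr7 and S1pr1 had the smallest differences, 1.85 and 1.86.

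**Figure D3:**
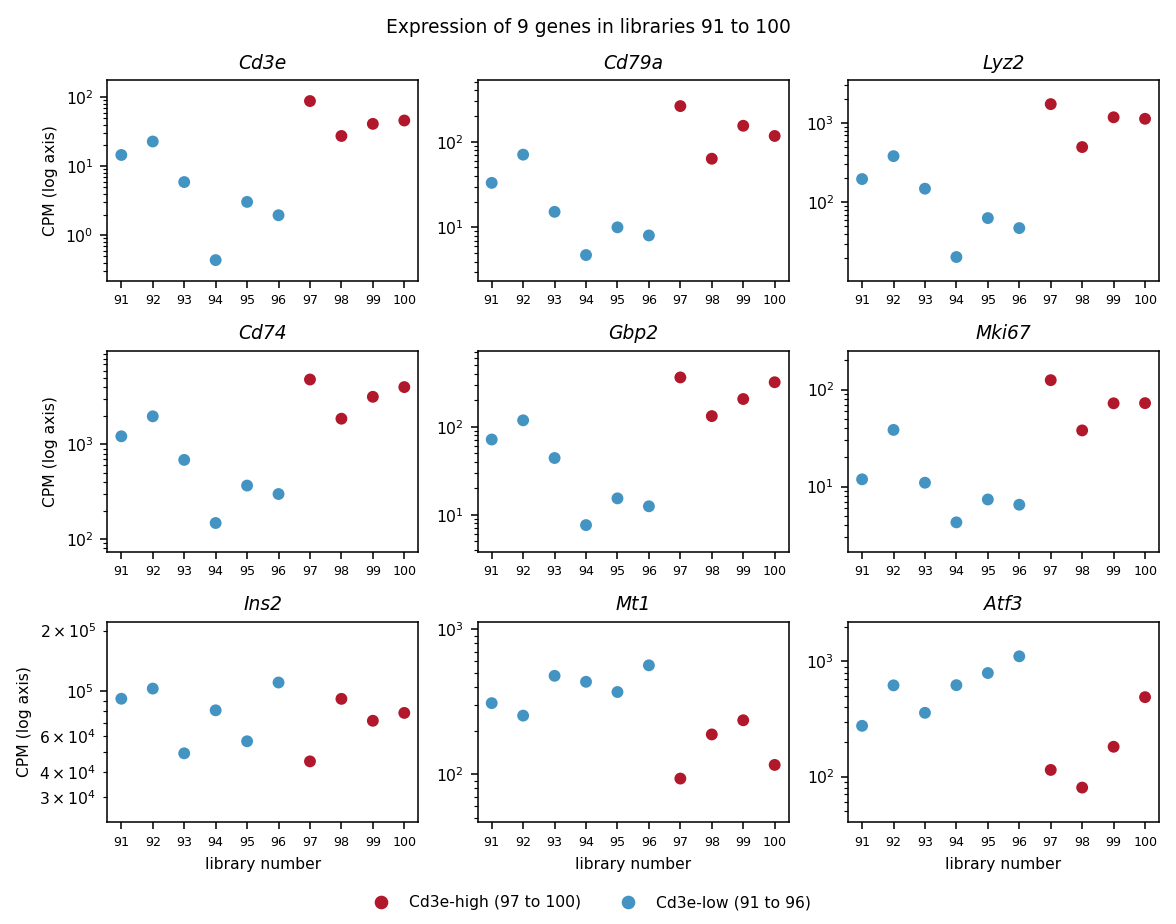
CPM (log axis) of 9 genes in each library by number. Cd3e, Cd79a, Lyz2, Cd74, Gbp2 and Mki67 are highest in library 92 among the Cd3e-low libraries; Mt1 is at 235 CPM or less in the 4 Cd3e-high libraries and at 253 CPM or more in the 6 others.

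B cell genes showed a median difference of 3.31, with 12 of 12 members higher by median, 4 separated by column sum and 8 by TMM. Over all genes 10.1% and 7.89% were separated above. Cd79b, a signalling chain of the B cell receptor, stood at 144, 32.5, 78.6 and 57.8 CPM against 0.486, 4.61 and 28.7 CPM. Ms4a1, which encodes CD20, differed by 3.71. Cd79a, the partner chain of Cd79b, stood at 260, 63.2, 153 and 116 CPM but overlapped, since library 92 reached 70.5 CPM. Library 97 was highest for both receptor chains. Ebf1, an early B cell factor, had the smallest difference, 2.44.

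Immunoglobulin genes set the libraries apart one by one. Ighm, the heavy chain of IgM, stood at 2846, 927, 3222 and 861 CPM against 25.3, 175 and 2233 CPM, and library 92 at 2233 CPM lay above both 98 and 100. Ighg1, an IgG heavy chain, stood at 31.1, 46.2, 300.3 and 41.8 CPM against 0.746, 1.11 and 27.2 CPM. Its difference of 4.78 was the largest of the separated genes with a mean of 5 CPM or more. Ighg3 stood at 3.64, 2.42, 1422 and 2.00 CPM. Library 99 alone of the 10 had it at a high level, since the Cd3e-low libraries ran from 0.0423 to 1.02 CPM. Of 15 kept genes of this list, 4 were separated, against 10.1% of all genes, with a median difference of 3.38. The smallest differences were those of Xbp1 and Prdm1, transcription factors of plasma cells that endocrine cells also express, at 0.05 and 1.08, and Xbp1 changed sign to -0.62 by TMM.

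Macrophage genes were higher by median for 13 of 13 members, 8 of them separated, with a median difference of 2.82. Lyz2, which encodes lysozyme, stood at 1733, 498, 1182 and 1132 CPM against 20.4, 106 and 382 CPM. C1qb, a subunit of the first complement component, stood at 188, 71.1, 145 and 153 CPM against 8.02, 16.7 and 62.2 CPM. Cd14 and Adgre1, which encodes F4/80, had the smallest differences, 1.03 and 1.96, and overlapped. Dendritic cell genes had a median difference of 2.18, with 5 of 12 separated. Ccr9 and Siglech, genes of plasmacytoid dendritic cells, differed by 3.20 and 2.88, and library 100 was highest for both, at 27.2 and 46.2 CPM. Itgax, which encodes CD11c, was the most abundant, at 163, 71.7, 110 and 155 CPM, with library 92 at 72.5 CPM. Of 12 neutrophil and mast cell genes fixed, 8 were not measured in the deposited counts. Of the 4 measured, 2 were kept, Csf3r and Kit, and endocrine and other cells can also express the latter.

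Class II genes of the major histocompatibility complex (MHC), which present peptides to CD4 T cells, were all higher by median, 7 of 7, with a median difference of 2.79. By column sum 3 were separated and by TMM 6. Cd74, the invariant chain, stood at 4826, 1863, 3171 and 4014 CPM against 148, 526.2 and 1973 CPM, with library 92 above library 98. Ciita, the transactivator of class II genes, had the largest difference, 3.67, at 216, 76.9, 114 and 155 CPM against 1.90, 11.0 and 55.1 CPM.

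Class I and interferon-induced genes were higher as well. Of 12 class I presentation genes 8 were separated (10 by TMM), with a median difference of 2.56. B2m, the light chain of class I molecules, stood at 2313, 962, 1682 and 2044 CPM against 86.6, 261 and 996 CPM, so it overlapped through library 92. Psmb9, an immunoproteasome subunit, had the largest difference, 3.03, and Psmb10 the smallest, 1.72. Of 22 interferon-induced genes 15 were separated (14 by TMM), with a median difference of 2.47. Cxcl9, a chemokine induced by interferon gamma, stood at 387, 146, 223 and 334 CPM against 4.28, 29.7 and 122 CPM. Gbp2, an interferon-induced GTPase, stood at 363, 132, 206 and 320 CPM against 7.61, 29.7 and 118 CPM. Irf1, also an interferon target, stood apart from its list at 302, 152, 239 and 389 CPM against 143, 199 and 376 CPM, and its difference of 0.43 changed sign to -0.42 by TMM.

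The interferon-stimulated response element, searched as GAAA, any 2 bases and GAAA again on both strands, was found in the promoter windows of 10 of the 17 interferon-induced genes with a RefSeq window, against 3.99% of all 27025 genes with one. Each window holds 300 bases, 250 before and 50 after the annotated start of the gene. Among the 10 class I genes with a window 2 held it. The windows of Gbp2 (chr3:142620413-142620712, plus strand) and B2m (chr2:122147437-122147736, plus strand) are printed as examples of windows with a match. Gbp2 is a separated interferon-induced gene, and B2m, the most abundant class I list gene by the median of the Cd3e-high set, overlapped by column sum. They come from RefSeq on GRCm38.p6, with the matched bases in capitals.
Gbp2: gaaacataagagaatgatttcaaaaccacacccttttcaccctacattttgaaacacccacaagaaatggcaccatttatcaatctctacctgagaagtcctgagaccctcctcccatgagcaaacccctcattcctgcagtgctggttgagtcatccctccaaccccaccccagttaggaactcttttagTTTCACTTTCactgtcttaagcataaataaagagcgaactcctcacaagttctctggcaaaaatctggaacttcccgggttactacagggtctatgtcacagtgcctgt
B2m: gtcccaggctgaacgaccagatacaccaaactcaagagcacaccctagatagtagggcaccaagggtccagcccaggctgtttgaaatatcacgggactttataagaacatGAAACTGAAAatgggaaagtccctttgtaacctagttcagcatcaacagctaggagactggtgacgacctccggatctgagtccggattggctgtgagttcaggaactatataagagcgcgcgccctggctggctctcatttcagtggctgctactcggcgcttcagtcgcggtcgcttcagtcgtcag
Each holds 1 match, read on the minus strand in Gbp2 and on the plus strand in B2m. A match describes the letters and shows no binding.

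Chemokines and cytokines divided. Of 15 chemokine and adhesion genes 3 were separated, Ccl8, Icam1 and Cxcl16, with a median difference over the list of 1.11. By TMM 4 were separated and the median was 0.45. Over all genes 10.1% were separated above by column sum and 7.89% by TMM, with medians of 0.60 and -0.03. Ccl8, a monocyte-attracting chemokine, stood at 57.0, 16.9, 39.1 and 58.5 CPM against 0.249, 2.85 and 13.8 CPM. Vcam1, the adhesion molecule bound by lymphocyte integrins and the most abundant of the list, stood at 213, 71.5, 158 and 192 CPM against 4.23, 20.6 and 89.5 CPM. The neutrophil chemokines Cxcl1 and Cxcl2 did not share this, with differences of -0.08 and 0.04 by column sum and -0.99 and -0.94 by TMM. Of 16 cytokine and receptor genes 7 were separated, with a median of 1.59. Tnfrsf1b, a receptor for tumour necrosis factor, differed by 3.10. Il6, an inflammatory cytokine, went the other way, at 2.89, 1.27, 2.64 and 7.00 CPM against 2.74, 6.13 and 10.9 CPM, a difference of -1.02 that overlapped. Tnf itself stood at 19.6, 7.23, 14.1 and 44.1 CPM against 10.3, 14.2 and 51.5 CPM.

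Over the 179 kept immune genes, 177 had a positive difference and 88 were separated by column sum, and 109 by TMM. Among all kept genes 88.7% had a positive difference by column sum, and 10.1% were separated above by column sum and 7.89% by TMM. In 13 of the 179 the Cd3e-low median was under 1 CPM. A total of 84 were separated under all 5 scalings.

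Of the 66 distinct kept endocrine list genes, 2 were separated above by column sum and 3 by TMM, and none below under either. Over all genes 10.1% and 7.89% were separated above, and 0.0939% and 0.648% below. With no minimum fold, 12 of the 66 lay below in every Cd3e-high library by TMM, against 7.22% of all genes. By column sum none did, against 0.174%. None of the 7 kept hormone genes was separated, and their median difference of 0.32 by column sum turned to -0.23 by TMM. Ins2, the main insulin gene, stood at 45069, 91853, 71568 and 78263 CPM against 49398, 86289 and 110631 CPM, and library 97, with the highest Cd3e, had the lowest Ins2. Gcg, the glucagon gene, stood at 9081, 13374, 24428 and 6022 CPM against 4603, 7911 and 16356 CPM. Sst, the somatostatin gene, had the largest difference of the list by column sum, 0.67, and was close to 0 by TMM.

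Beta cell identity genes were lower by median in the Cd3e-high set for 15 of 18 members by column sum. Their median difference was -0.22 by column sum (-0.82 relative to that of all genes) and -0.74 by TMM. It was -0.24 when libraries were scaled to granule genes, where the median of all genes was 0.42. Leaving out library 97 or library 100 brought the median by column sum to 0.01. None was separated, though by TMM 7 of the 18 lay below in every Cd3e-high library at less than 2-fold. With no minimum fold 7.22% of all genes lay below by TMM. Nkx6-1, a transcription factor of mature beta cells, stood at 174, 348, 299 and 222 CPM against 216, 358 and 428 CPM, with a difference of -0.47. Ucn3, a beta cell maturity marker, stood at 100.7, 273, 288 and 110 CPM against 110, 236 and 365 CPM. Library 97 lay below the Cd3e-low range for both genes. Library 100 lay just inside its lower end, at 221.6 against 216.5 CPM for Nkx6-1 and 109.9 against 109.5 CPM for Ucn3. Libraries 98 and 99 lay further inside it. Ero1lb, an oxidase of insulin folding and the most abundant of the list, differed by 0.03 by column sum and -0.48 by TMM. Foxo1 went against the list with a difference of 1.02.

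Granule genes had a median difference of 0.07, alpha cell genes 0.43 and autoantigen genes -0.10 by column sum, which became -0.47, -0.36 and -0.65 by TMM, with none separated under either scaling. Chga, which encodes the granule protein chromogranin A, stood at 3408, 5750, 5859 and 4128 CPM against 2597, 5298 and 6613 CPM. Of 4 delta cell genes Hhex was separated by column sum and overlapped by TMM. Genes that beta cells normally keep low had positive differences for 10 of 10 members by column sum, where 88.7% of all kept genes did. By TMM 9 of the 10 were positive, where 46.8% of all kept genes were. Their median was 1.66 by column sum and 0.98 by TMM. By column sum 1 of the 10 was separated, against 10.1% of all genes, and by TMM 3, against 7.89%. Ldha, a lactate dehydrogenase subunit and the gene of that list separated by column sum, stood at 258, 88.3, 139 and 188 CPM against 18.2, 31.6 and 85.0 CPM. Immune cells and fibroblasts also express the genes of that list.

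**Figure D4:**
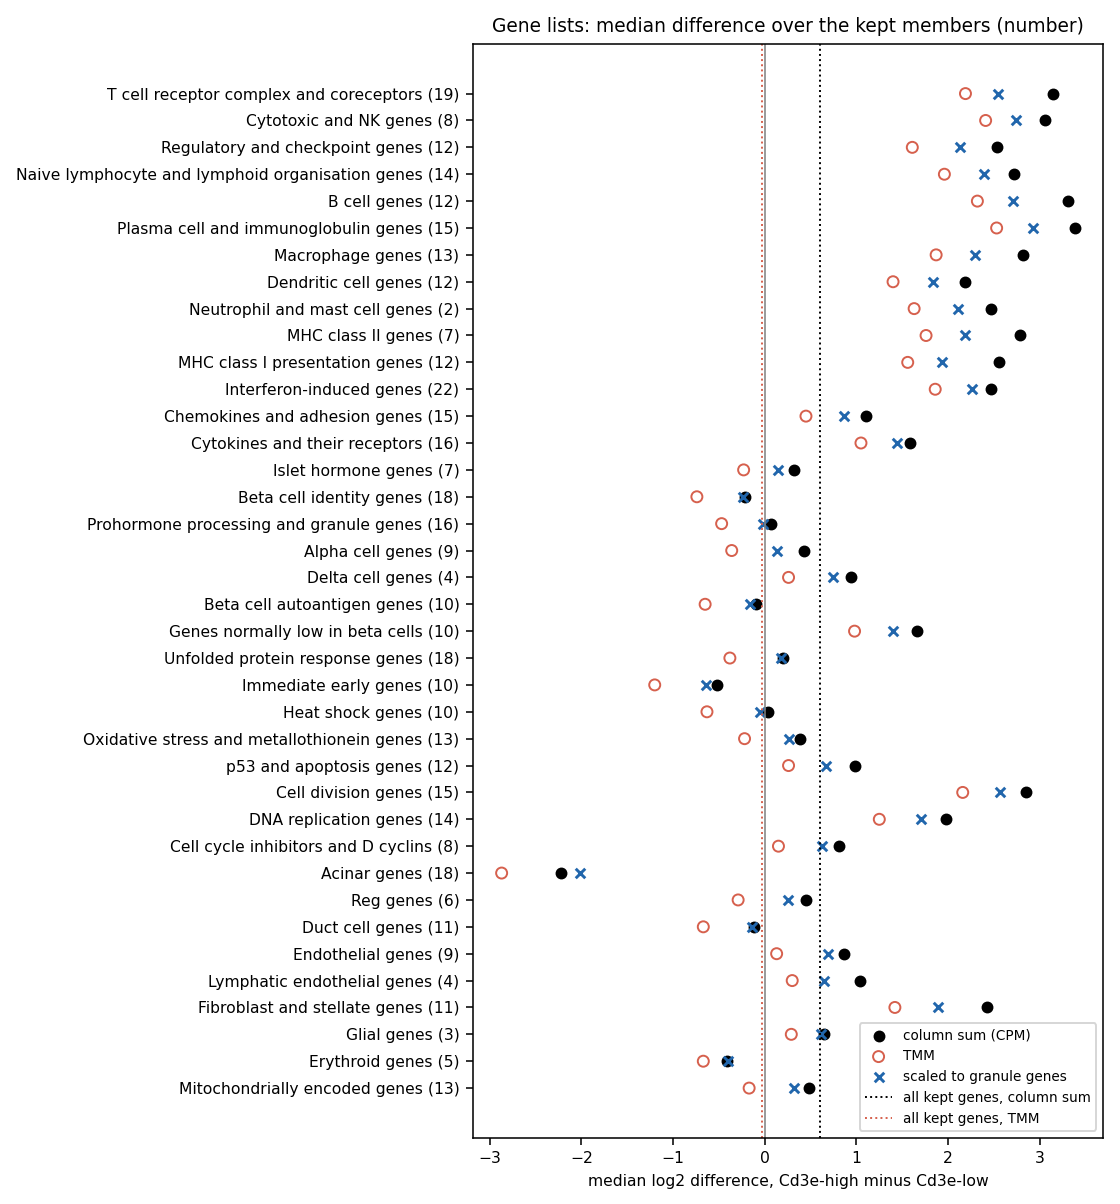
Median log2 difference (Cd3e-high minus Cd3e-low) over the kept members of each list, with the number of members in brackets, under 3 scalings. Dotted lines give the median of all kept genes, 0.60 by column sum and -0.03 by TMM; immune, division and fibroblast lists lie right of them and the acinar list left, at -2.22 by column sum.

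Of the 63 kept stress list genes, 2 were separated above and 2 below by column sum, and 1 above and 10 below by TMM. Over all genes the shares were 10.1% above and 0.0939% below by column sum, and 7.89% and 0.648% by TMM. The unfolded protein response list had a median difference of 0.20 by column sum and -0.38 by TMM, with 0 of 18 separated. Hspa5, the chaperone BiP and the most abundant member, stood at 1217, 1330, 1457 and 1861 CPM against 1013, 1700 and 2413 CPM. Atf3, a stress-induced transcription factor, was the member furthest below, at 114, 80.3, 182 and 490 CPM against 276, 621 and 1108 CPM. Its difference of -2.10 overlapped because library 100 lay inside the Cd3e-low range. Ddit3 and Chac1, targets of the same stress pathway, differed by -0.97 and -1.06. Calr and Pdia4, chaperones of protein folding, had the largest differences, 0.73 and 0.55.

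Immediate early genes, which cells transcribe within minutes of a stimulus or of handling, had a median difference of -0.52 by column sum and -1.20 by TMM, with 0 and 6 of 10 separated below. Fosb stood at 679, 788, 1275 and 1630 CPM against 1561, 2942 and 4590 CPM. Library 100 was the highest of the Cd3e-high set and overlapped with the lowest Cd3e-low library. Fos, the most abundant, ran from 1268 CPM in library 97 to 2530 CPM in library 100 against 1798, 2661 and 3333 CPM. Zfp36, which destabilises cytokine messages, went against the list at 0.27 by column sum and -0.47 by TMM. All 10 were higher in library 92 than in 98.

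Heat shock genes had a median of 0.04 by column sum and -0.63 by TMM, and Hspa1a, the inducible Hsp70, stood at 25.0, 20.4, 28.3 and 84.6 CPM against 17.8, 69.0 and 251 CPM. A near-identical copy, Hspa1b, shares most of its sequence, so the split between them is uncertain. The p53 and apoptosis list had a median of 0.98 by column sum and 0.26 by TMM, with 2 of 12 separated above by column sum, Casp8 among them. Casp8, an initiator caspase, stood at 60.4, 29.1, 37.6 and 46.2 CPM against 6.72, 10.6 and 27.7 CPM. Bbc3, which encodes the death effector PUMA, went the other way with a difference of -0.55.

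Metallothioneins, small proteins that bind zinc and copper, gave the 2 stress list genes separated below by column sum, where by TMM 10 were, 6 of them immediate early genes. Mt1 stood at 93.3, 188, 235 and 116 CPM against 253, 401 and 563 CPM. Mt2 stood at 50.0, 110, 148 and 72.0 CPM against 188, 258 and 419 CPM. Mt2 was separated below under all 5 scalings and Mt1 under 4, since Mt1 overlapped with granule genes as the scale. The sets of both do not overlap under column sum and TMM, with differences of -1.43 and -1.53 by column sum and -2.26 and -2.35 by TMM. Mt2 shares 58.1% of its 31-base words with other annotated transcripts, so its level is uncertain. The other 11 genes of the oxidative stress list had positive differences by column sum, where 88.7% of all kept genes did. They ran from 0.08 for Nqo1 to 1.61 for Gpx1, and 9 of those 11 turned negative by TMM. The median of the whole list by column sum, 0.39, lay below the 0.60 of all kept genes.

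The metal response element, searched as TGCGCNC or TGCACNC on both strands, was found in the windows of 28.2% of all 27025 genes and of 5 of the 11 genes of the oxidative stress list with a window. The windows of Mt1 (chr8:94178839-94179138, plus strand) and Mt2 (chr8:94172368-94172667, plus strand) are printed because these neighbours on chromosome 8 were both separated below. They are from the same RefSeq table and build, with the matches in capitals.
Mt1: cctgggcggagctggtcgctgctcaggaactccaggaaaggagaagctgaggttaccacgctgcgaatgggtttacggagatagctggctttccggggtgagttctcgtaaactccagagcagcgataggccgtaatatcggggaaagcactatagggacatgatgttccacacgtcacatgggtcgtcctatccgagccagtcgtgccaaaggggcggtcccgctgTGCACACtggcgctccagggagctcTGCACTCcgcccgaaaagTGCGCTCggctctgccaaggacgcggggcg
Mt2: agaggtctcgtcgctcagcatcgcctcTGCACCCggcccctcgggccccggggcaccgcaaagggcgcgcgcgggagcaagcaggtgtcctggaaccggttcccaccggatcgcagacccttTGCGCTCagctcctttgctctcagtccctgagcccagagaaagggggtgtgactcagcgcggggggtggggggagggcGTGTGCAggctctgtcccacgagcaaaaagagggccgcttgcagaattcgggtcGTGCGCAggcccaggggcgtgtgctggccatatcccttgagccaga
Mt1 holds 3 matches and Mt2 holds 4, and the printed matches do not overlap each other. These counts depend on the start that RefSeq gives: GENCODE transcripts of Mt1 begin 7 bases before it and 122 and 152 bases after it, and those of Mt2 begin 46 and 242 bases after it. From the later starts all the printed matches would lie before the start, where 2 of the 3 in Mt1 lie after that of RefSeq.

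Division genes were higher with the immune genes. Of 15 cell division genes 15 had a positive difference, with a median of 2.85 by column sum and 2.16 by TMM, and 5 were separated by column sum and 11 by TMM. Mki67, the proliferation antigen Ki-67, stood at 125, 37.9, 72.2 and 72.5 CPM against 4.28, 9.16 and 38.4 CPM, so library 92 lay just above library 98. Top2a, a topoisomerase of dividing cells, had the largest difference, 3.41, at 103, 30.4, 64.6 and 68.8 CPM against 2.09, 6.48 and 34.5 CPM. Foxm1 had the smallest, 2.03. Replication genes had a median of 1.98, with 3 of 14 separated by column sum and 7 by TMM. Of the 37 kept division list genes 9 were separated above by column sum and 18 by TMM. Over all genes 10.1% and 7.89% were separated above, and 88.7% and 46.8% had a positive difference. Mcm5, a subunit of the replicative helicase, differed by 3.17, and E2f1 by 0.94. Ccnd2, the D cyclin most abundant in these libraries, was not part of this, at 510, 747, 584 and 560 CPM against 354, 625.3 and 864 CPM. Bulk counts do not show which cells divided.

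Ratios of 2 genes within a library do not depend on scaling, and 23 were computed, chosen after values had been seen. In 2 of them every Cd3e-high library lay above every Cd3e-low one and in 2 below. Cd8a to Cd4 was 0.611, 0.518, 0.553 and 0.584 in the Cd3e-high libraries and 0.286 to 0.466 in the Cd3e-low ones. The exact 95% binomial interval on the counts of library 98, 0.475 to 0.566, overlapped those of library 91, 0.413 to 0.524, library 92, 0.412 to 0.486, and library 93, 0.352 to 0.495. Library 94 rested on 12 Cd8a and 36 Cd4 counts, and its interval, 0.158 to 0.656, covered all 4 Cd3e-high ratios. The interval of library 99, 0.520 to 0.589, overlapped that of library 91 too. Foxp3 to Cd4 was 0.130, 0.175, 0.121 and 0.149 against 0.166 to 0.220, with library 98 inside the Cd3e-low range. Ins2 to Ins1 was 1.81, 2.10, 2.06 and 2.02 against 2.14 to 2.52. The coding sequences of these 2 insulin genes are alike, but few of their 31-base words are shared with other annotated transcripts. The share was 4.55% for Ins1 and 3.27% for Ins2. Whether the counting split reads between Ins1 and Ins2 was not tested. B2m to Ptprc, the pan-leukocyte gene of CD45, was 3.36, 4.37, 4.51 and 4.37 against 4.61 to 8.73. Mki67 to Ins2 was the other ratio above in every Cd3e-high library, and Mki67 to Cd4 overlapped, at 0.529 to 0.808 against 0.388 to 2.44.

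**Figure D5:**
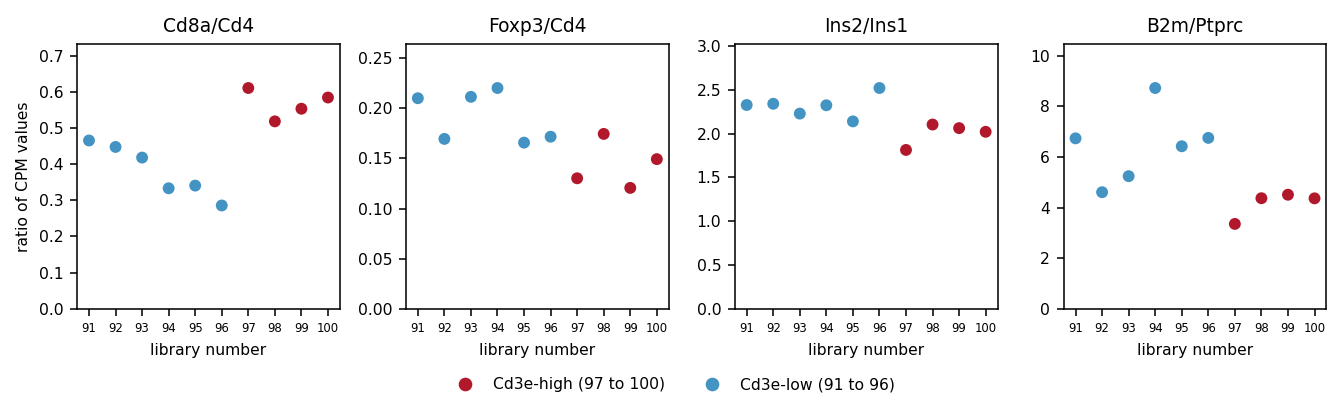
Ratio of the CPM values of 2 genes within each library, by library number, on axes from 0. Cd8a to Cd4 is 0.518 or more in the Cd3e-high libraries and 0.466 or less in the others; Foxp3 to Cd4 overlaps.

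Of the 68 kept genes of other cell types, 2 were separated above by column sum, against 10.1% of all genes, and none below. Fibroblast and stellate genes had positive differences for 11 of 11 members, where 88.7% of all kept genes did by column sum, and 1 of the 11, Pdgfrb, was separated by column sum and 3 by TMM. The list had a median difference of 2.42 by column sum and 1.42 by TMM and a summed level of 869.5 to 1656 CPM against 193.4 to 981.5 CPM. Col1a1, a collagen chain, stood at 226, 100.9, 184 and 158 CPM against 15.4, 28.5 and 112 CPM. Endothelial genes had a median of 0.87 by column sum and 0.13 by TMM, with Cdh5 the 1 separated of 9. All 18 acinar genes were lower by median, with a median difference of -2.22, and none was separated because library 92 lay with or below the Cd3e-high libraries. Reg2, of a family that injured islets and acinar cells express, stood at 128, 504, 39.4 and 31.0 CPM against 5.53, 8.21 and 47.9 CPM. The 5 list genes that set library 98 furthest from the other Cd3e-high libraries were all of the Reg family, Reg3b, Reg3a, Reg2, Reg3g and Reg3d. Reg3b stood at 154 CPM there and at 24.3, 15.9 and 15.5 CPM in 97, 99 and 100.

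The Y-linked genes Ddx3y, Uty, Kdm5d and Eif2s3y were near 0 in the 5 libraries with Xist above 100 CPM and present in the other 5, which puts library 100 with 93 to 96. Ddx3y stood at 83.1 CPM in library 100 and at 0.0967 to 0.199 CPM in 97, 98 and 99. Among the 5 Xist-high libraries (97, 98 and 99 against 91 and 92) the T cell receptor list had a median difference of 1.15 and 19 of 19 members were higher. Between library 100 and libraries 93 to 96 the median was 3.98, a value of 1 library that was itself chosen for its Cd3e. For beta cell identity genes these medians were -0.24 and -0.14. All of these are by column sum, where the medians of all genes in the same comparisons were 0.20 and 0.77. By TMM the T cell medians were 0.91 and 3.28 and the beta cell medians -0.47 and -1.02, with all genes at 0.01 and -0.06. With the Xist-high libraries alone 734 genes were separated above and 42 below. With 3 libraries against 2 the separation rule is met more easily, so these counts are not comparable with those of the full sets.

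Across all genes, the 15 largest separated differences above, among genes with a mean of 5 CPM or more, included those of Ighg1, Chil1, Ccl8, Cd79b, Ms4a4b, Sash3, Nkg7, Ms4a1, Gbp10, Gpr35, Il16, F830016B08Rik, Serpina3g and Ccl5, and 7 of the 15 are in the fixed lists. Chil1, a chitinase-like protein of macrophages and epithelia, stood at 61.4, 10.5, 31.7 and 34.1 CPM against 0.243, 1.06 and 4.86 CPM. Sash3, an adaptor of lymphocyte receptor signalling, differed by 3.73. Gbp10 shares 89.8% of its 31-base words with other transcripts and its level is uncertain.

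Below, 14 genes with a mean of 5 CPM or more did not overlap, whatever their fold: Zbtb16, Mt2, Npas4, Gm37625, Mt1, Arc, Cyp39a1, Rasd1, Pde5a, Nes, Lzts3, Asns, C2cd4a and Zfp503. Nes and Asns overlapped by TMM. Zbtb16, a zinc finger transcription factor that glucocorticoids induce, stood at 2.19, 1.67, 3.00 and 3.31 CPM against 5.71, 8.96 and 13.2 CPM, a difference of -1.62. Npas4, an activity-dependent transcription factor that beta cells also express, stood at 46.1, 80.7, 45.7 and 22.4 CPM against 83.7, 132 and 197 CPM. Arc, another activity-dependent gene, stood at 7.10, 5.68, 11.4 and 8.35 CPM against 11.6, 18.3 and 33.5 CPM. Under all 5 scalings 9 genes were separated below, Zbtb16, Mt2, Npas4, Arc and Gm37625 among them.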

How the data were processed

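Polyadenylated RNA was sequenced from islets, with 10 of the 95 libraries compared here. The deposited table of expected counts covers 20638 genes and was not normalized (67.7% of its values were whole to within 1e-06). The authors also gave a table of variance-stabilised values on a scale close to log2, per the file headers and values. Per the submitters' processing notes the build was GRCm38 and DESeq2 was used, with no version. The aligner, counter, annotation and use of strand are not given in the sources used here, so overlapping or antisense genes cannot be told apart.

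The labels put no library in a group. The sets were cut by Cd3e, and the sets, the 40 gene lists and the ratios were chosen with earlier results of these data known, so no test of a difference between the sets was run. CPM was count over column sum, log2 differences used a pseudocount of 0.5 CPM, and genes with a mean of 1 CPM or more were kept. Of 459 list genes 436 were measured and 428 kept. Other scalings were TMM (edgeR 4.0.16), DESeq2 1.42.0 size factors on rounded counts, column sums without the immune, hormone and acinar lists, and 16 granule genes. The named genes in each list were the most abundant in the Cd3e-high set, the 2 largest and 2 smallest differences and up to 2 against the list, then the 15 largest separated differences in each direction over all genes, the 5 that set library 98 apart, Cd3e, Cd4, Cd8a, Xist and 4 Y-linked genes, and a few others chosen after their values were seen. Counting error was small: shares of counts had Wilson 95% intervals of at most 0.019 percentage points to either side, which cover counting error only. No pair of the 10 libraries agreed within sampling noise (lowest chi-square per degree of freedom 29.1 of 45 pairs). The separation rule was tested on simulated data. All sample columns of the tables were assigned. Alternatives were listed at the start, except 3 chosen after seeing the data. Results of a few genes that the naming rule picks are not reported here.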

Additional observations from a re-analysis of the deposited data

Results flagged for a closer look

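A value was singled out where the highest or lowest library of a set lay far from the others of its set by Dixon's criterion at 95%. Of 156 sets of values examined 8 met it, and chance alone meets it in about 1 set in 20. The acinar list score, the median log2(CPM + 0.5) of its members, was 12.18 in library 98 against 11.03 to 11.19 in the other Cd3e-high libraries. In library 92 it was 10.58 against 12.70 to 13.90 in the other Cd3e-low libraries. The score of Xist and Y-linked genes was 5.10 in library 100 against -0.73 to -0.50 in 97, 98 and 99. For the same library Xist was 2.44 CPM against 588 to 638 CPM and Ddx3y was 83.1 CPM against 0.0967 to 0.199 CPM. In library 92 Gzmb was 1.8 CPM against 0.0711 to 0.312 CPM in the other Cd3e-low libraries, and Ighg1 was 27.2 CPM against 0.746 to 3.12 CPM. In library 99 Ighg3 was 1422 CPM against 2.00 to 3.64 CPM in the other Cd3e-high libraries.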

How the results depend on the processing

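No paired analysis was possible because the labels give the libraries neither groups nor replicate numbers. Of 256 values over 12 results and their alternatives, 183 stayed within 1.5 times the reported count or within the spread of the libraries, 62 moved further and 11 changed sign. The cause was not tested. Counts of separated genes with fewer libraries, such as 3 against 2 in the Xist-high libraries, meet the separation rule more easily. Genes separated above, 1507 as reported, numbered 786 in the deposited variance-stabilised values, 894 at a mean of 10 CPM or more, 757 at 4-fold or more and 734 in the Xist-high libraries alone. Genes separated below, 14 as reported, numbered 96 by TMM, 89 by DESeq2 size factors, 32 by column sums without the immune, hormone and acinar lists, 37 in the deposited values, 9 with a pseudocount of 2 CPM, 5 at 10 CPM or more, 26 with no minimum fold, 0 at 4-fold or more, 36 without the 3 libraries with over 25% acinar counts and 42 in the Xist-high libraries alone.

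The medians of the T cell, B cell, macrophage, class II, class I, interferon and division lists kept a positive sign under each alternative run. By TMM they were 2.19, 2.32, 1.87, 1.76, 1.56, 1.86 and 2.16. By DESeq2 size factors they were 2.20, 2.33, 1.88, 1.77, 1.57, 1.88 and 2.17. In the deposited values they were 1.71, 1.94, 1.29, 1.81, 1.58, 1.21 and 1.27. In the Xist-high libraries alone they were 1.15, 1.73, 1.39, 1.01, 0.94, 0.96 and 1.55, over genes kept in those libraries. Without the libraries rich in acinar counts, the first 6 were 1.78, 2.34, 1.57, 1.60, 1.40 and 1.72. Scaling to granule genes brought class I to 1.93, and a pseudocount of 2 CPM brought division to 2.08.

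The median of beta cell identity genes was -0.74 by TMM, -0.73 by DESeq2 size factors and -0.64 in the deposited values. That of hormone genes changed sign to -0.23, -0.22 and -0.19 in the same order, to -0.26 without the acinar-rich libraries and to -0.27 in the Xist-high libraries. That of the unfolded protein response list changed sign to -0.38, -0.37 and -0.30 in that order and to -0.07 by column sums without the 3 lists.

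Leaving out each library in turn gave 1396 (without 97) to 4289 (without 92) genes above and 11 (without 97) to 117 (without 92) below. The counts below were also 22 without 91, 24 without 93, 25 without 98 and 33 without 100. List medians ran from 2.68 to 3.63 for T cells, 3.03 to 3.62 for B cells, 2.49 to 3.08 for macrophages, 2.38 to 3.23 for class II, 2.34 to 2.82 for class I, 1.99 to 2.86 for interferon, 2.55 to 3.20 for division, -0.42 to 0.01 for beta cell identity, 0.17 to 0.47 for hormones and 0.07 to 0.28 for the unfolded protein response. Depth limits the scarce genes: in library 94 1 CPM is 20.6 counts.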

Other observations

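In the 85 libraries outside this numbering range, Ighg3 had a median of 0.228 CPM and a highest value of 890 CPM, so a library with much of this transcript also occurs there. Glycam1 had a median of 0.0848 CPM there, with a highest value of 53.4 CPM, and Gbp2 a median of 3.17 CPM and a highest value of 55.8 CPM. All 6 Cd3e-low libraries lay above the median of the 85 for Cd3e, Cd4, Cd8a, Gbp2 and Glycam1, and 2 of the 6 did for Ighg3. For Ins2 and Slc2a2, 0 of the 6 lay above it.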
